A study of Mus musculus with 2 samples.

Results

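The imprinted fetal growth genes described here are 10 mouse genes, H19, Dlk1, Meg3, Peg3, Peg10, Mest, Cdkn1c, Plagl1, Grb10 and Ndn. They were measured at E12.5 in wild-type embryos of strain C57Bl6, in sorted mesothelial cells and in cells of the liver. Members were found as probe sets whose platform annotation names exactly 1 gene symbol, that of a member. This gave 35 of the 34958 probe sets with 1 symbol, for 9 of the 10 genes and of the 18194 genes in all. H19 has no such probe set, because its only probe set is annotated to H19 together with Mir675, a microRNA gene inside it, and no value is given for it. The mesothelial cells, which form the flat epithelium over the liver, had been sorted with antibodies to the surface protein podoplanin (Pdpn) from trypsin-digested livers. Each sample was 1 Affymetrix array hybridised with labelled cDNA amplified from 20 ng of total RNA. The labels say neither whether embryos were pooled nor whether Pdpn+ cells were taken out of the liver cells, and a free-text label speaks of far younger embryos than the stated stage. Without replicates no difference was tested, and the values describe these 2 arrays.

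Imprinted genes are transcribed mainly from the chromosome inherited from 1 parent, because DNA methylation laid down in the egg or the sperm is kept at a control region of each gene cluster. As a broad rule in mice, several paternally expressed genes promote fetal and placental growth and several maternally expressed genes restrain it. Dlk1, Mest, Peg3, Peg10, Plagl1 and Ndn are expressed from the paternal allele, and H19, Meg3, Cdkn1c and, in most tissues, Grb10 from the maternal allele. The arrays do not separate the 2 alleles, so total transcript levels are described, not imprinting.

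RefSeq promoter windows of GRCm38.p6 were at hand for 7 of the 10 genes. The windows below belong to Ndn, which had the largest difference between the arrays, to Peg3, Mest and Plagl1, which were also brighter in mesothelial cells, and to Grb10, which had the smallest difference. For Peg3, Mest and Plagl1 the methylated control region is known to lie at a promoter of the gene itself, whereas Ndn is controlled from a distant region. Each window runs 5′ to 3′ along the gene, from 250 bases before to 50 bases after its start. Where a gene had several starts, a window with the most CpG dinucleotides is shown. Capitals mark the letters TGCCGC or their complement GCGGCA, the word that the zinc finger protein ZFP57 reads when it is methylated.
Ndn, chr7:62348027-62348326, plus strand: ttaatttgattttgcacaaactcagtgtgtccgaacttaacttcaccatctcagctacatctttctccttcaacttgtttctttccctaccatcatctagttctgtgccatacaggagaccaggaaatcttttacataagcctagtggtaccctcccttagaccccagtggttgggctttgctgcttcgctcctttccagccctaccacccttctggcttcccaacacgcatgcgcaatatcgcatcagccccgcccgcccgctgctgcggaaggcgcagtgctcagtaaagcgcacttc
Peg3, chr7:6730370-6730669, minus strand: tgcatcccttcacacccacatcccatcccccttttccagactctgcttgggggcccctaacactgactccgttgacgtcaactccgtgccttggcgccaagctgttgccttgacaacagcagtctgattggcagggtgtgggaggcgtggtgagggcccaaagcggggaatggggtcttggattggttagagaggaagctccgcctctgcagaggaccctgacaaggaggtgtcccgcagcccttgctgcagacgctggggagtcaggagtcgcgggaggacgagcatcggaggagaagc
Mest, chr6:30737800-30738099, plus strand: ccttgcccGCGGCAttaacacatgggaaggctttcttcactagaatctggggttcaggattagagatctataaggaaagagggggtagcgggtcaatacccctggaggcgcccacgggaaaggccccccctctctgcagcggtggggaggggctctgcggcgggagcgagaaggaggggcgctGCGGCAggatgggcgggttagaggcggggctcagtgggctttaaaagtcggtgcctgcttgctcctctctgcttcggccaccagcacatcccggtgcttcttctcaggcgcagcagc
Plagl1, chr10:13090582-13090881, plus strand: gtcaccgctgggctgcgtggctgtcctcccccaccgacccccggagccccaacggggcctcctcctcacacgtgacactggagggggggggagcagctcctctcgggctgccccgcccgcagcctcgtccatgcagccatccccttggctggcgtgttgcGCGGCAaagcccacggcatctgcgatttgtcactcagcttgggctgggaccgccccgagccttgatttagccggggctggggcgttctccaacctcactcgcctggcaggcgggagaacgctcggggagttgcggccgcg
Grb10, chr11:12037371-12037670, minus strand: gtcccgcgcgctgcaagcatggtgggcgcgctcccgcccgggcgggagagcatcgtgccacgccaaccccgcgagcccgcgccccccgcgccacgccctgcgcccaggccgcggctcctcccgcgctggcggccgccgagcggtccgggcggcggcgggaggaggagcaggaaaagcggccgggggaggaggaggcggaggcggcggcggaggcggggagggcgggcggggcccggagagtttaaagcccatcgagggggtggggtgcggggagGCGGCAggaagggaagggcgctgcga
The word was searched on both strands, and overlapping matches were counted. The Mest window holds 2 matches, the Plagl1 and Grb10 windows 1 each, and the Ndn and Peg3 windows none. The 7 genes have 10 windows when the pair of Mest windows that overlap is counted once, and 4 of these hold it, from Mest, Plagl1, Grb10 and Meg3. It occurs in 11.6% of all 32851 windows of this length. The windows shown for Grb10, Plagl1, Mest, Peg3 and Ndn hold 45, 26, 17, 13 and 11 CpG dinucleotides. These were partly chosen for that number: the other window of Grb10 holds 9, a further one of Mest 8, and those of Meg3 13 and 1. The median over all windows is 7. A match is a description of letters and not a bound site.

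Of the 9 genes measured, 8 were at least 2-fold brighter in mesothelial cells and none was at least 2-fold brighter in liver cells. Over all 11906 genes above the intensity floor these shares were 45.8% and 3.86%. Each gene was represented by its brightest probe set, and the floor asks that the higher value reach the median of its array, 65.8 on the mesothelial and 42.3 on the liver array. All 9 genes reached that median on both arrays. Differences are log2 intensity in mesothelial minus liver cells. Their median was 1.82 over the 9 genes and 0.66 over all 18194 genes, so it was 1.15 relative to all genes. The genes above the floor, to which all 9 belong, had a median of 0.91. Relative to them the median of the 9 was 0.91, and 3 of the 9, Ndn, Cdkn1c and Meg3, were at least 2-fold over it. After each array was centred on its median, 6 of the 9 genes were still at least 2-fold brighter in mesothelial cells, against 23.9% of all genes above the floor. The liver side then held 9.25% of genes above the floor, and no growth gene. Among all genes called in either direction, those on the mesothelial side made up 92.2% as deposited, 72.1% after median centring, 65.1% after quantile normalization, 48.3% after centring on reference genes and 44.9% after centring on hybridisation controls. Under quantile normalization 6 growth genes were on that side, beside 20.7% of all genes above the floor, with 11.1% on the liver side. Under the last 2 scalings 3 were, Ndn, Cdkn1c and Meg3, beside 15.5% and 14.6% of all genes, with 16.6% and 17.9% on the liver side. At a 4-fold threshold the same 3 were called as deposited, beside 16.1% and 1.08% of all genes on the mesothelial and the liver side. Centring on hybridisation controls subtracts 1.08 from each difference, so a gene with a smaller difference as deposited, such as Grb10 and many genes named further on, turns negative there. A difference between the samples can come from more cells of a type or from more RNA per cell, which cannot be told apart here.

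At the level of single probe sets the direction was the same. Of the 35 probe sets, 5 read within the range of the bacterial control probe sets on both arrays, at most 16.2 for the mesothelial and 10.5 for the liver array, and carry no information. They are 3 of the 8 for Ndn and 2 of the 5 for Peg3. All 30 others read higher in mesothelial cells as deposited. A 2-fold excess in mesothelial cells was seen for 27 of the 29 above the floor, and in liver cells for 0, against 41.8% and 4.07% of all 20668 probe sets above the floor. Probe sets of a gene share the same 2 RNA samples and are not replicates. For 4 of the 6 genes with several probe sets above the floor, Dlk1, Peg3, Plagl1 and Grb10, the brightest probe set gave the smallest difference.

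**Figure D1:**
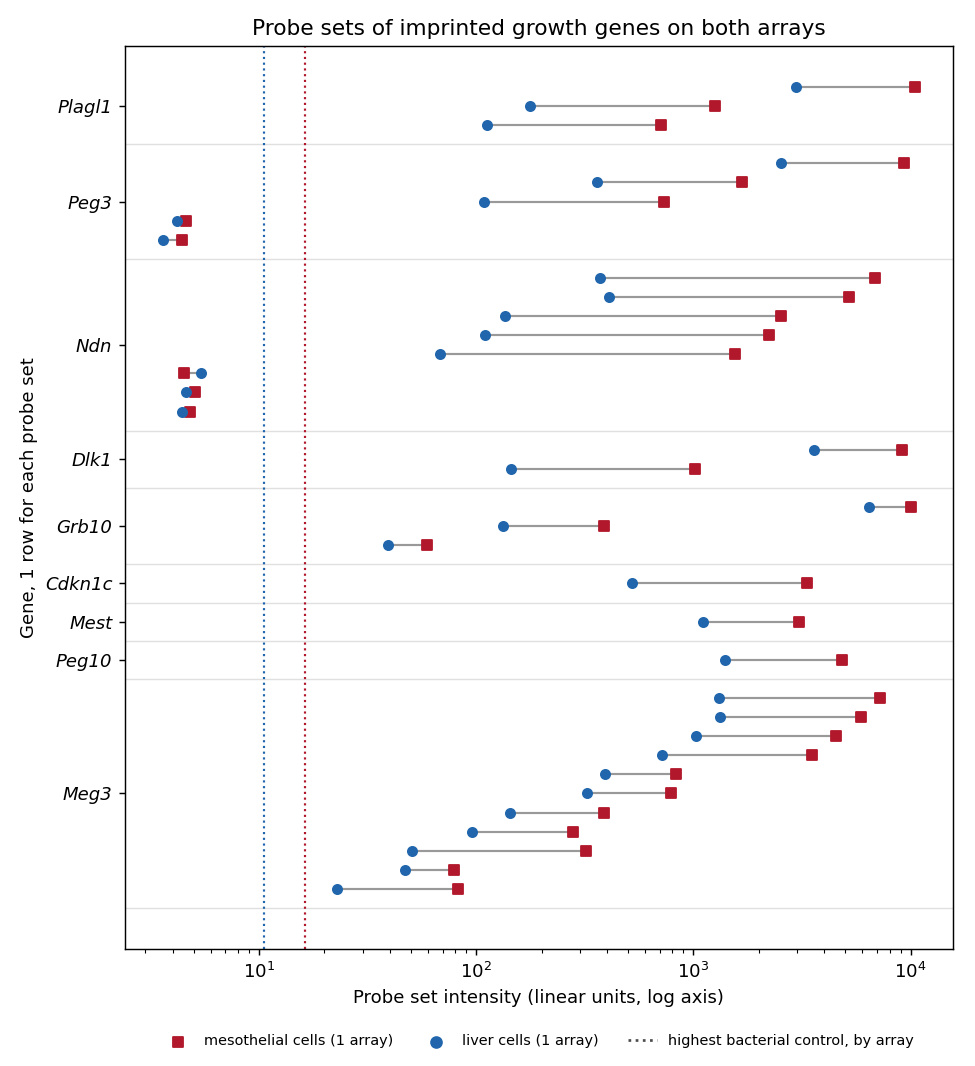
Intensity of each of the 35 probe sets (1 row each, grouped by gene) in mesothelial cells (red squares) and liver cells (blue circles), on a log axis, with dotted lines at the highest bacterial control of each array (16.2 and 10.5). Except for 5 rows left of the lines, for Ndn and Peg3, the red square lies to the right of the blue circle in each row.

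Ndn encodes necdin, a protein of the MAGE family that restrains proliferation and is abundant in postmitotic neurons. Its representative probe set, 1455792_x_at, read 6886 in the mesothelial sample and 370.5 in the liver sample, 18.6-fold higher. The difference of 4.22 was larger than that of 99.3% of genes above the floor, where it ranked 83rd, and was 3.55 relative to all genes. The mesothelial array thus carried most of the necdin signal. Liver cells read lower, but over the control level and over the liver array median of 42.3. The other 4 informative probe sets read 5218 against 406.7, 2540 against 135.9, 2234 against 109.5 and 1552 against 68.4. Their ratios ran from 12.8-fold to 22.7-fold, with the last from a probe set of the kind designed to match 1 transcript, 1415923_at. The SD of the difference over the 5 probe sets was 0.31, beside a pooled SD of 0.70 over the 5222 genes with several probe sets above the floor.

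Plagl1 and Peg3 encode zinc finger proteins. Plagl1, also called Zac1, is a transcription factor that in mice regulates a network of other imprinted genes, and Peg3 is known for effects on fetal growth. Plagl1 read 10476 in mesothelial and 2975 in liver cells with its brightest probe set, 3.52-fold higher. The other 2 probe sets read 1251 against 177.8 and 710.1 against 111.9, 7.03-fold and 6.35-fold higher. All 3 probe sets were thus brighter in mesothelial cells, by 1.82 to 2.81 on the log2 scale, with an SD of 0.54. The brightest is of the cross-hybridising kind (name ending in _x_at), and without it the difference of the gene was 2.81. Peg3 read 9297 in mesothelial and 2529 in liver cells, 3.68-fold higher. Its 2 further informative probe sets read 1673 against 361.3 and 731.3 against 108.8. The Peg3 differences lay between 1.88 and 2.75, with an SD of 0.44, so the size depended on the probe set but not the direction as deposited.

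Cdkn1c encodes p57, a cyclin-dependent kinase inhibitor that brings cells out of the cycle and limits fetal growth. Its single probe set read 3349 in the mesothelial sample and 520.8 in the liver sample, 6.43-fold higher. The difference of 2.68 was 2.02 relative to all genes, and 92.8% of genes above the floor had a smaller one. Meg3, at 2.46, was within the pooled SD of it, and without probe sets of the cross-hybridising kinds Dlk1 and Plagl1, at 2.81 each, lay above it. By their brightest probe sets, the related inhibitors that are not imprinted differed by less than 2-fold. Cdkn1a, which encodes p21, read 295.3 and 247.3, and Cdkn1b, which encodes p27, 1404 and 1081. Their differences of 0.26 and 0.38 lay under the median of all genes. The SD was 0.43 over the 2 probe sets of Cdkn1a and 1.17 over those of Cdkn1b. The latter is above the pooled 0.70, so a difference under 2-fold does not hold over both probe sets of Cdkn1b.

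Dlk1 and Meg3 lie beside each other in an imprinted domain of chromosome 12, where Dlk1 is expressed from the paternal and Meg3 from the maternal chromosome. Dlk1 encodes a membrane protein with EGF-like repeats, used as a surface marker of fetal hepatoblasts. Its probe set 1449939_s_at read 9145 in mesothelial and 3587 in liver cells, 2.55-fold higher and 0.69 relative to all genes. The other, 1442724_at, read 1012 against 144.7, 7.00-fold higher. Both were brighter in mesothelial cells, but the differences of 1.35 and 2.81 had an SD of 1.03, above the pooled 0.70, so the size is not settled by these probe sets.

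Meg3 is a long non-coding RNA. Its 11 probe sets were all above the floor and all brighter in mesothelial cells, by 1.70-fold to 6.34-fold. The brightest, 1439380_x_at, read 7216 in mesothelial and 1312 in liver cells, 5.50-fold higher. Those next in brightness read 5881 against 1331, 4515 against 1026 and 3517 against 720.3. The 4 probe sets over 1000 in mesothelial cells lay close together, with differences from 2.14 to 2.46. The 7 dimmer ones ranged more widely, from 79.4 against 46.8, the smallest difference at 0.76, to 321.5 against 50.7, the largest at 2.66. Relative to all genes the gene's difference was 1.80, and 10 of the 11 probe sets were at least 2-fold brighter in mesothelial cells as deposited.

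Peg10 and Mest each had 1 probe set. Peg10, derived from a retrotransposon and required for placental development in mice, read 4839 in mesothelial and 1401 in liver cells, 3.45-fold higher and 1.12 relative to all genes. Mest, also called Peg1, encodes a protein of the hydrolase fold expressed in embryonic mesoderm. It read 3073 in mesothelial and 1104 in liver cells, 2.78-fold higher. Relative to all genes the Mest difference was 0.81, below 2-fold.

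Grb10 encodes an adaptor that binds the insulin and insulin-like growth factor receptors and restrains fetal growth. By brightest probe sets as deposited, it was the only 1 of the 9 genes that differed by less than 2-fold. After median centring Dlk1 (0.71) and Mest (0.84) were also under 2-fold. The brightest probe set of Grb10, 1425458_a_at, read 10008 in mesothelial and 6404 in liver cells, 1.56-fold higher. This difference of 0.64 was -0.02 relative to all genes. A second probe set read 386.4 against 132.4, 2.92-fold higher, for an SD of 0.64, and the third, under the floor, 59.4 against 39.1. The transcript was thus bright on both arrays. The sign turned to -0.38 after centring on reference genes and -0.43 after centring on hybridisation controls. Its relatives that are not imprinted, Grb7 and Grb14, also encode adaptors of receptor tyrosine kinases. Grb7 read 107.1 and 116.8, and Grb14 136.1 and 105.5, and the 2 probe sets of Grb14 gave an SD of 1.40.

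**Figure D2:**
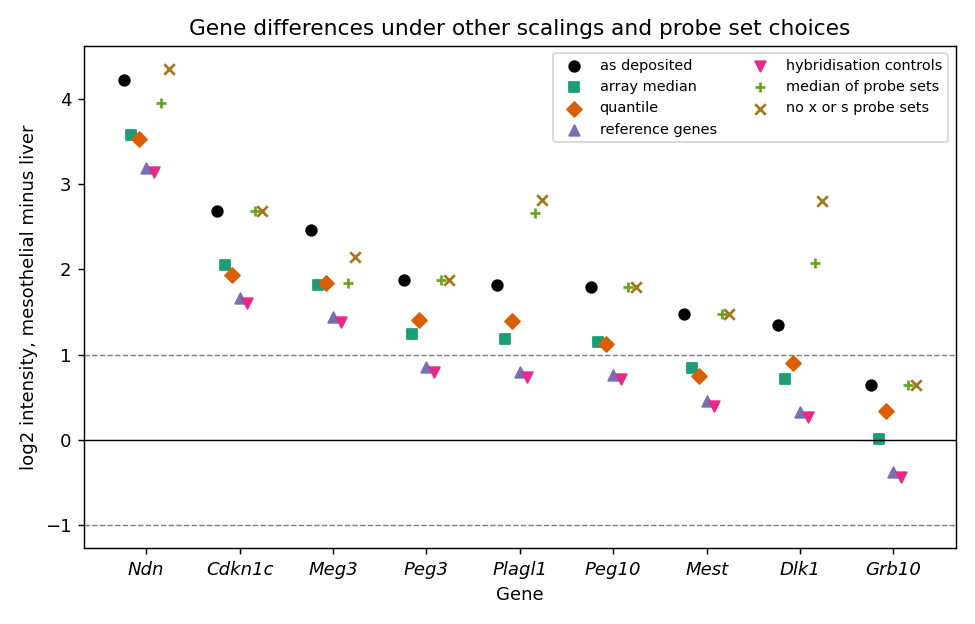
Difference of each of the 9 genes (log2 intensity, mesothelial minus liver) as deposited and under 6 other settings, with dashed lines at a 2-fold difference in either direction. Ndn stays between 3.14 and 4.35, while Grb10 lies on either side of 0.

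In order of their differences as deposited, by the brightest probe set, the 9 genes ran Ndn, Cdkn1c, Meg3, Peg3, Plagl1, Peg10, Mest, Dlk1 and Grb10. Ndn stood apart, since its lowest informative probe set (3.68) was above the highest of any other member (2.81). The neighbours Peg3, Plagl1 and Peg10 lay between 1.88 and 1.79, well within the pooled SD of 0.70 between probe sets of a gene, so their order carries no weight. The 6 paternally expressed genes lay between 1.35 and 4.22, with a median of 1.80, and the 3 maternally expressed genes between 0.64 and 2.68, with a median of 2.46. The 2 ranges overlap.

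Other imprinted genes were examined as a list of 63, of which 53 had a value and 41 were above the floor. The list was taken from general knowledge of mouse imprinting, and whether each gene is imprinted in these cells was not tested. A 2-fold excess or more was found on the mesothelial side for 25 of the 41, on the liver side for 0, and 16 differed by less. The median over the 53 was 1.23, or 0.56 relative to all genes. Beside the 25 and 0 of 41 stand the shares of 45.8% and 3.86% over all genes above the floor. Of the 41, 37 also reached the array median on both arrays, and 22 of these were at least 2-fold brighter in mesothelial cells. The share over all genes under that stricter rule was not computed, so the 22 of 37 has no share beside it. After median centring the counts were 12 and 2 of 41, beside 23.9% and 9.25% of all genes above the floor.

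Imprinted genes within 1 megabase of a growth gene were called its neighbours. In the Ndn domain, all 3 neighbours within that limit were also brighter in mesothelial cells. Peg12 read 169.5 against 19.4, 8.74-fold higher, and Magel2 and Mkrn3, a MAGE family gene and a ring finger gene, read 54.7 against 5.5 and 25.4 against 7.1. The last 2 lay under the floor and were at control level in liver cells, so they were at least 5.21-fold and 2.42-fold higher. Peg12 passed the floor through the mesothelial array alone, with its liver value under the liver array median of 42.3. The limit leaves out listed genes further along the chromosome, which differed far less than Ndn. Ube3a read 801.4 against 684.3 and Atp10a 117.9 against 70.6, differences of 0.23 and 0.74. Snrpn, under the floor with its 1 probe set of 1 symbol, had a difference of 0.80. Its 6 further probe sets name several symbols and were left out, so its level is not settled here. In the Peg3 domain, the protease gene Usp29 read 953.3 against 207.2, 4.60-fold higher, and Zim1, a zinc finger gene under the floor, 61.3 against 7.8, at least 5.84-fold higher. These 2 domains thus held no measured neighbour that was dimmer in mesothelial cells. The same was true of the Meg3, Mest, Cdkn1c and Grb10 domains, and the median of all genes was itself 0.66.

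The Peg10 domain was mixed. Ppp1r9a, which encodes an actin-binding protein, read 2121 against 309.6, 6.85-fold higher, and its 4 probe sets gave an SD of 0.85. Asb4, an ankyrin repeat gene, read 2763 against 492.3, 5.61-fold higher, and the protease inhibitor gene Tfpi2 611.6 against 199.0. Ppp1r9a and Asb4 thus exceeded the 3.45-fold ratio of Peg10, and Tfpi2, at 3.07-fold, did not. Sgce, which encodes a sarcoglycan and is transcribed divergently from Peg10, read 389.1 against 184.6, 2.11-fold higher. The paraoxonase genes differed little, with Pon3 at 138.1 against 111.6 and Pon2 at 229.2 against 311.7, and Calcr, the calcitonin receptor gene, was under the floor at 31.2 against 5.3. Along this domain the difference ran from -0.44 to 2.78.

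In the Dlk1 and Meg3 domain, the non-coding RNA genes Rian and Mirg went with Meg3 but less far. Rian read 4758 against 2202, 2.16-fold higher, and Mirg 695.6 against 282.3, 2.46-fold higher. The SD was 0.30 over the 4 probe sets of Rian and 0.08 over the 2 of Mirg. Relative to all genes these differences were 0.45 and 0.64, against 1.80 for Meg3. Both are transcribed in the same direction as Meg3, from the maternal chromosome. Near Mest, the zinc finger gene Klf14 read 111.1 against 14.4, 7.72-fold higher, and Copg2, a gene of a vesicle coat protein, 331.1 against 198.0. The liver value of Klf14 was under the liver array median of 42.3.

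Around Cdkn1c most neighbours differed less than Cdkn1c itself. Above the floor, 1 of 6 was at least 2-fold brighter in mesothelial cells, beside 45.8% of all genes above the floor. It was the oxysterol-binding protein gene Osbpl5, at 92.3 against 14.2, with the liver value under the liver array median of 42.3. Kcnq1ot1, the non-coding RNA expressed from the paternal chromosome that silences this cluster, read 820.3 against 437.9, and its 4 probe sets gave an SD of 1.25. Phlda2, which limits placental growth, read 96.7 against 85.1, Slc22a18 98.3 against 58.4, Tssc4 432.0 against 234.2 and the histone chaperone gene Nap1l4 4990 against 3272. The differences of these 4 genes, 0.18, 0.75, 0.88 and 0.61, lay near or under the median of all genes, and Kcnq1 was under the floor at 36.6 against 17.4. Next to H19, Igf2, which encodes a main fetal growth factor, read 11991 against 4731, 2.53-fold higher, and its 2 probe sets gave an SD of 0.17. The insulin gene Ins2 read 45.2 against 46.0, while Ascl2 and Th were under the floor at 57.8 against 38.2 and 16.4 against 8.8.

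Near Grb10 both measured neighbours differed more than Grb10. Cobl, which encodes an actin nucleator, read 784.4 against 54.3, 14.4-fold higher, and Ddc, the gene of an amino acid decarboxylase, 316.4 against 96.3, 3.29-fold higher. A growth gene and its neighbours thus differed by unequal amounts in the Grb10, Cdkn1c, Peg10, Mest, Meg3 and Ndn domains.

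**Figure D3:**
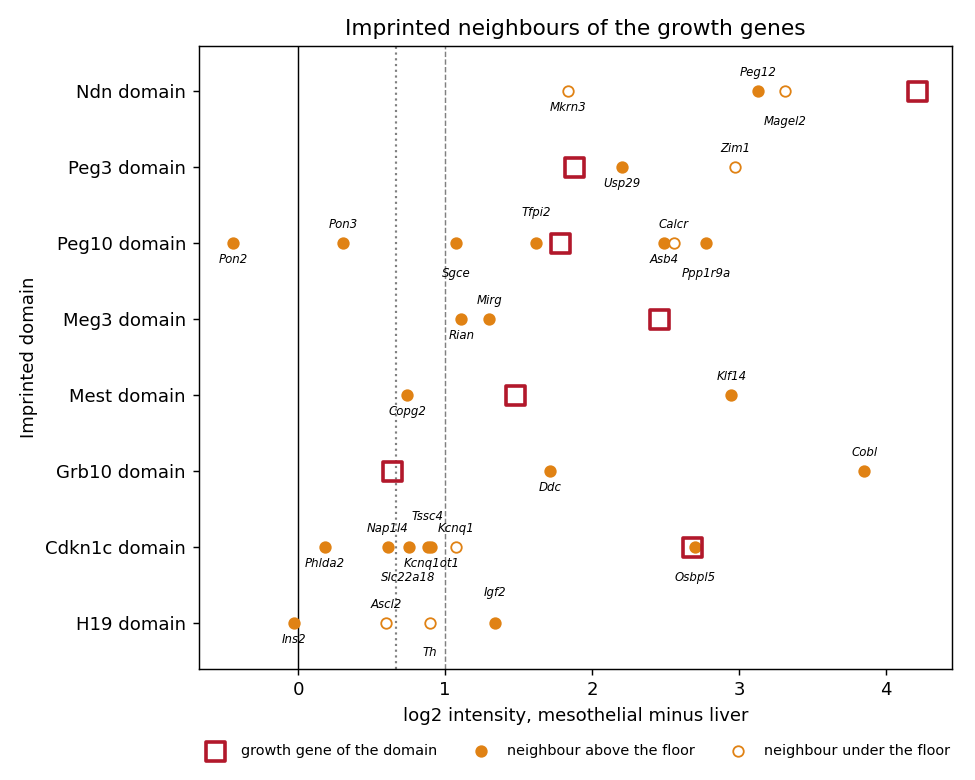
Difference (log2 intensity, mesothelial minus liver) of each growth gene (open red square) and of its imprinted neighbours within 1 megabase (orange, filled above the floor and open under it), by domain, with a dotted line at the median of all genes (0.66) and a dashed line at 2-fold. Neighbours in the Ndn and Peg3 domains all lie right of the dashed line, and most around Cdkn1c lie left of it; measured differences are drawn also where the text gives a bound.

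Among imprinted genes away from the growth genes, 12 of the 19 that passed the floor had a 2-fold excess in mesothelial cells, beside 45.8% of all genes above the floor. The 8 with the largest differences are named next. Zdbf2, an imprinted zinc finger gene of growth control, read 1192 against 115.0, 10.4-fold higher. Nnat, which encodes the membrane protein neuronatin, read 2128 against 291.9, 7.29-fold higher, and Slc38a4, an amino acid transporter gene, 2522 against 580.5, 4.34-fold higher. The matrix proteoglycan gene Dcn read 999.4 against 263.6, and its 2 probe sets gave an SD of 1.47. Airn, the non-coding RNA antisense to Igf2r, read 892.0 against 302.0, and Igf2r, the receptor that clears Igf2, 1910 against 707.1. Inpp5f and Trappc9 were 2.90-fold and 2.67-fold higher. In the other direction, Commd1, picked after its values were seen, read 1363 in mesothelial and 2250 in liver cells, a difference of -0.72. It was 1 of 3 genes above the floor in the whole list with a negative difference, beside Pon2 and Ins2.

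**Figure D4:**
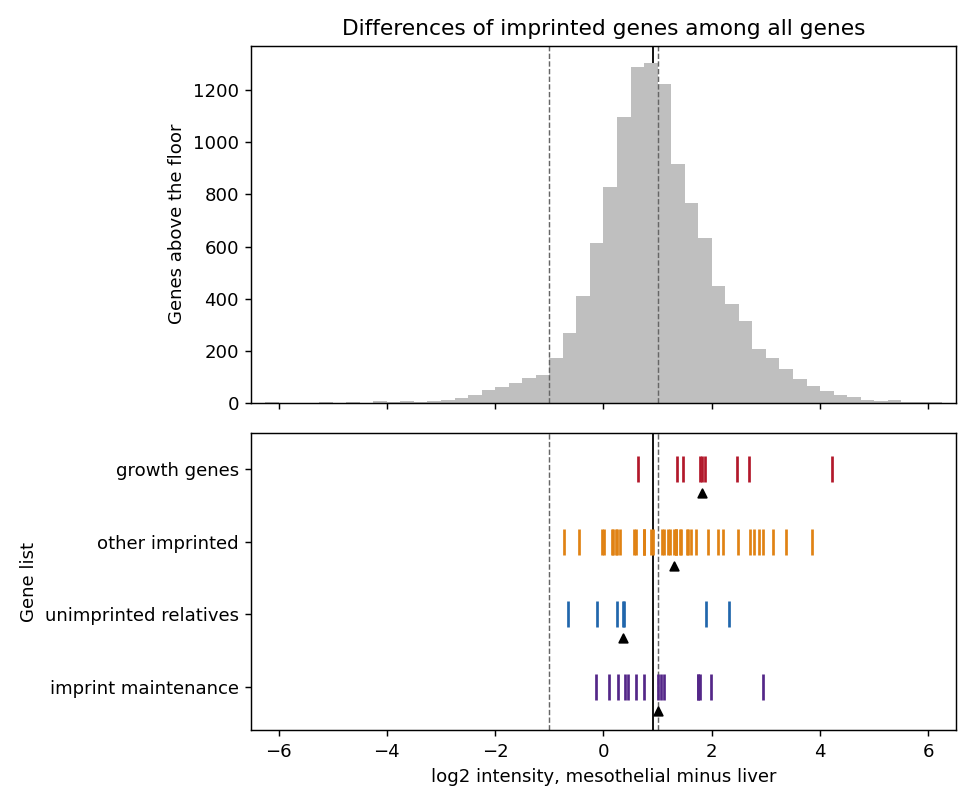
Upper panel, number of genes above the floor by difference (log2 intensity, mesothelial minus liver); lower panel, the same difference for the genes above the floor of 4 lists (1 tick per gene, triangle at the median), with a solid line at the median of genes above the floor (0.91) and dashed lines at 2-fold. The growth genes run from 0.64 to 4.22, and their median of 1.82 lies right of those of the other 3 lists (1.30, 0.37 and 1.01).

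Of 9 relatives of the growth genes that are not imprinted, 7 passed the floor. Of these, 2 were at least 2-fold brighter in mesothelial cells, beside 45.8% of all genes above the floor. Both are MAGE family genes like Ndn, with Maged1 at 1860 against 498.2 and Maged2 at 1397 against 281.4, where the 2 probe sets of Maged2 gave an SD of 1.28. Plagl2, a relative of Plagl1, went the other way at 418.9 against 658.9, a difference of -0.65. Plag1 and Dlk2 were under the floor, at 18.8 against 7.8 and 54.2 against 29.0. The median over the 9 was 0.38, against 0.66 over all genes, and its sign turned after centring on array medians.

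Genes that lay down or keep imprints, called imprint maintenance genes here, were listed because they act on the control regions of the growth genes. Of 18, 15 passed the floor, and 8 of the 15 had a 2-fold excess on the mesothelial side and 0 on the liver side, beside 45.8% and 3.86% of all genes above the floor. After median centring 5 of the 15 had such an excess, beside 23.9%. The median over the 18 was 0.68, or 0.01 relative to all genes, and its sign turned after centring on reference genes or hybridisation controls. Zfp57, whose protein reads the word marked in the promoters above, read 711.7 against 92.5, 7.69-fold higher. Its partner gene Trim28 read 6133 against 1831, 3.35-fold higher, the DNA methyltransferase gene Dnmt3a 4253 against 1076 and the histone methyltransferase gene Ehmt2 730.3 against 212.0. These 4 were named for the largest differences of the list, and 7 of the 15 differed by less than 2-fold.

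Markers of several cell types were also brighter in mesothelial cells. Pdpn, the gene of the sort, was 38.8-fold brighter in mesothelial cells, which checks the labels. The 10 mesothelial markers above the floor were at least 2-fold brighter there, with a summed intensity of 27680 against 3724. The same held for 10 of 10 stellate markers (17600 against 4455), 9 of 9 megakaryocyte markers (27435 against 7513), 10 of 12 muscle markers (4478 against 1046) and 7 of 9 macrophage markers (8192 against 2386), beside 45.8% of all genes above the floor. Less the median of all genes, these counts were 10, 8, 6, 7 and 4, for which no share was computed. Des was counted among both the stellate and the muscle markers. Several called markers read under the liver array median of 42.3 and passed the floor through the mesothelial array alone. These were Upk1b (23.2), Muc16 (6.8), Aldh1a2 (24.8), Lrrn4 (14.1), Des (33.3), Ngfr (36.3), Lhx2 (21), Hand2 (18.6), Colec11 (36.3), Myf5 (11.4) and Tnnt2 (19.7). The measured megakaryocyte and macrophage markers all read above it. Against the other muscle markers, Acta1 was 2.97-fold brighter in liver cells, at 22.7 against 67.4, and Mylpf read 179.5 against 238.2. Endothelial markers, with 4 of 10 (3796 against 1721), lay under the share of all genes, and less the median of all genes 2 were brighter in mesothelial and 1 in liver cells. Hepatoblast markers were bright on both arrays, with 3 of 9 at least 2-fold brighter in mesothelial cells and sums of 75514 against 52826. Of 10 erythroid markers, 6 were at least 2-fold brighter in liver cells, beside 3.86% of all genes above the floor. The erythroid sums were 22990 against 49877. No marker of the stellate, megakaryocyte, muscle, macrophage, endothelial, hepatoblast or erythroid lists was at control level on the mesothelial array. Of all probe sets, 76.8% lay over that level there, so this is a low bar. Acta1, Emcn and Epb42, at 22.7, 50.7 and 62.7, were under the array median of 65.8, and the other measured markers of these lists were above it. Most transcripts used as markers of other cell types thus gave signal in the sorted sample. Their part in the differences of the growth genes was not tested.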

How the data were processed

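Probe set intensities on a linear scale were deposited by the authors for both samples, 1 array each, and log2 was taken here. Per the submitters' processing notes, RMA and Partek were used, with no version or order. The unit was judged from the values (3.2 to 27470.4), and no source used here gives the scaling between arrays. Probe sets were named by the platform annotation. Of 34958 with 1 symbol, 34754 matched a RefSeq gene ID (GRCm38.p6, for names and neighbours only), 0 were renamed, and 932 with several symbols were left out. The members and lists were chosen with earlier results of these data known. Named were all members, neighbours in their domains, the 8 other imprinted genes and 4 imprint maintenance genes with the largest absolute differences above the floor, all relatives, and sample markers. A fold is given as at least N-fold where the lower value lay within the highest of 27 bacterial controls on its array. The number of arrays limits the precision. The code that makes the calls (pandas 2.3.3, numpy 2.4.6) was checked on arrays with known differences, which gives no error rate for these samples. Alternatives were 4 scalings, 2 probe set choices, a control-level minimum, 2 floors and a 4-fold threshold.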

Additional observations from a re-analysis of the deposited data

How the results depend on the processing

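Under the 10 alternatives, no growth gene was at least 2-fold brighter in liver cells. Of the 9 genes, 8 kept a positive difference under the 7 alternatives that give 1, and Grb10 turned to -0.38 and -0.43 after centring on reference genes and on hybridisation controls. These 2 settings left 3 growth genes and 16 of their probe sets at least 2-fold brighter in mesothelial cells, with a median of 0.79 and 0.74, and a 4-fold threshold also left 3 and 16. For the other imprinted genes, the counts brighter in mesothelial and in liver cells were 12 and 2 with median centring, 11 and 2 with quantile normalization, and 10 and 4 with either reference genes or hybridisation controls. With a 4-fold threshold the first count was 10. The share of all genes above the floor called higher in mesothelial cells was 23.9% with median centring and 20.7% with quantile normalization. It was 15.5%, 14.6% and 16.1% with reference genes, hybridisation controls and the 4-fold threshold. Shares higher in liver cells were 9.25%, 11.1%, 16.6% and 17.9% with median centring, quantile normalization, reference genes and hybridisation controls. No share over all probe sets was computed under these settings, so the counts of 16 have none beside them. Centring moves each difference by the same amount, by construction. Dlk1 and Plagl1 each read 2.81 without probe sets of the cross-hybridising kinds. No paired analysis was possible because each group has 1 array, and for the same reason no array could be left out. Signal over background limited 5 probe sets of Ndn and Peg3.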
